A study of Mus musculus with 4 samples.

Results

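The genes described here are a set of 38 imprinted mouse genes, Grb10 among them, chosen by name from knowledge of imprinting, with earlier results of these arrays known. All probe sets with a single gene symbol that matched a listed name were taken, and 34 of the 38 genes had at least 1, with 85 probe sets in all. The brightest probe set of a gene, by its mean value, stood for that gene. A gene was compared if its highest value reached 6.05, the median of all values on the log2 scale, which 29 of the 34 genes did, out of 12098 of 18194 genes on the whole array. The 5 genes under this level were Usp29, Zim1, Asb4, Peg12 and Nap1l5. Nap1l5 lay just outside it with a highest value of 5.54 and Dlk1 just inside with 6.18. Dlk1 reached it on the Hey2 labelled induced array alone and Peg10 on the labelled induced arrays alone, so nothing is read from their share in a count. The genes Rtl1, Dio3 and Zrsr1 had no matching probe set, and the probe set with the symbol H19 also carries a microRNA's symbol, so these 4 were not analysed here.

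Imprinted genes are read mainly from the chromosome inherited from a single parent, and many sit in clusters controlled by a shared stretch of DNA that is methylated on the maternal or the paternal copy. Many act on growth of the embryo and placenta: genes read from the paternal copy often promote growth and genes read from the maternal copy often restrain it. In embryonic stem cells the marks are kept by maintenance methylation and by zinc finger proteins such as Zfp57, and can be lost or gained in culture. The array reads the sum of both copies and does not tell them apart.

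Murine embryonic stem cells (CM7/1) labelled as overexpressing Hey1 (the Hey1 line) or Hey2 (the Hey2 line) were profiled on 2 Affymetrix arrays a line, without doxycycline and after 48 h in 1000 ng/ml of it. Hey1 and Hey2 are basic helix-loop-helix repressors downstream of Notch. Each of the 4 groups, uninduced and labelled induced cells of either line, had 1 array. Single differences are therefore given as values, with no replicate to check them and no p-value. The labels do not say whether the lines are single clones or whether the arrays came from separate cultures.

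The introduced genes did not read clearly higher at their own probe sets. The Hey1 probe set differed by -0.23 on the log2 scale in the Hey1 line, and the Hey2 probe set, below the level filter, by 0.09 in the Hey2 line. For Hey1 the uninduced arrays read 6.73 in the Hey1 and 6.72 in the Hey2 line, and those labelled induced 6.51 and 6.25. For Hey2 they read 4.84 and 4.25, and 4.51 and 4.34, so that Hey2 was lower in the Hey2 line. Whether these probe sets lie in the introduced sequences or a label is wrong was not tested, so a change within a line means only the value labelled induced less the uninduced value. All 8 pluripotency markers passed the level filter on all 4 arrays, with list medians of 12.82 to 13.16. Markers of other cell types were mostly under it: 0 of 8 fibroblast, 2 of 7 trophoblast and 0 of 8 primitive endoderm markers reached it on all 4 arrays, with list medians of 5.02 to 5.48. The exceptions were Tfap2c and Hand1 of the trophoblast list. In such bulk samples, fewer cells of a type and less RNA per cell cannot be told apart.

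**Figure D1:**
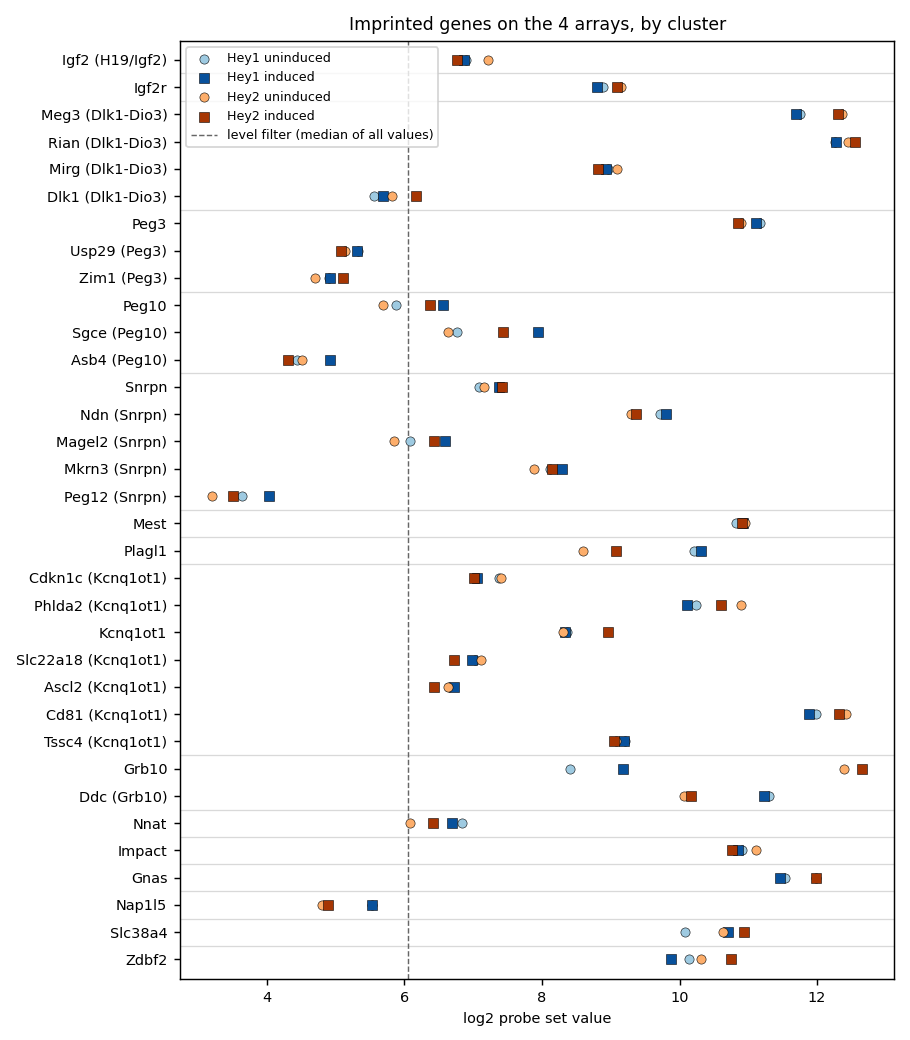
Log2 probe set value (x axis) of the 34 imprinted genes with a probe set, by cluster (y axis), with a point for each of the 4 arrays. The dashed line is the level filter at 6.05. The points of Grb10 fall into a Hey1-line pair at 8.40 and 9.18 and a Hey2-line pair at 12.39 and 12.65, and those of Plagl1 and Ddc split by line in the opposite direction.

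Differences between the lines came first in size. Grb10, an adaptor that binds the insulin and IGF1 receptors and dampens their signalling, was 15.8-fold higher in the uninduced Hey2 line than in the uninduced Hey1 line. Its neighbour Ddc, the enzyme that makes dopamine and serotonin from their amino acid precursors, was 2.36-fold lower there. Plagl1, a zinc finger transcription factor that slows cell growth, was 3.08-fold lower. Among the 12098 genes compared, 1.96% differed at least 2-fold between the uninduced arrays, against 3 of the 29 imprinted genes (10.3%).

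Grb10 had a log2 value of 8.40 on the uninduced and 9.18 on the labelled induced array of the Hey1 line, and of 12.39 and 12.65 on those of the Hey2 line. Both Hey2-line arrays lay above both Hey1-line arrays with a wide gap. The line pairs were apart for 16 of 29 imprinted genes (15 of 27 without Peg10 and Dlk1) and for 54% of all genes compared. By size, the difference of 3.98 between the uninduced arrays ranked 2 of 12098 genes and the difference of 3.47 between the arrays labelled induced ranked 8. The other probe sets of Grb10 also read higher in the Hey2 line, by 1.10 and 1.85 in the uninduced and by 1.76 and 2.20 in the labelled induced arrays, but the second of them reached the level filter in the Hey2 line alone.

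Ddc read 11.30 and 11.23 in the Hey1 line and 10.06 and 10.16 in the Hey2 line. The line pairs did not overlap, in the direction opposite to Grb10. The other Ddc probe set stayed under the level filter on all arrays and differed by 0.09 and -0.11. Plagl1 read 10.22 and 10.32 in the Hey1 line against 8.60 and 9.08 in the Hey2 line, again without overlap. A further Plagl1 probe set, which reached the filter in the Hey1 line alone, had smaller differences of -0.25 and -0.26, and the third, under the filter, had -0.39 and 0.32.

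**Figure D2:**
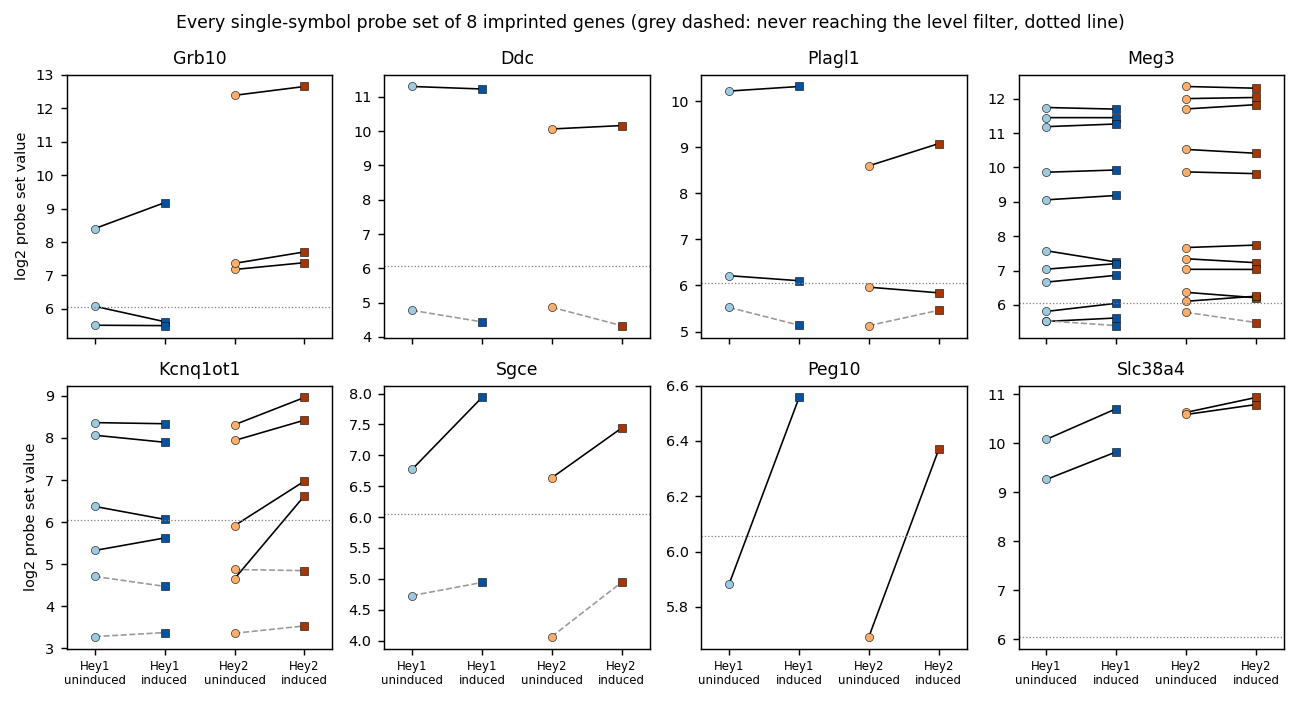
Log2 value (y axis) of every single-symbol probe set of 8 imprinted genes on the 4 arrays (x axis), joined within a line. Grey dashed lines mark probe sets that never reached the level filter (dotted line). All 3 Grb10 probe sets sit higher in the Hey2 line, and the Kcnq1ot1 probe sets differ in level and in the size of their Hey2-line change.

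The line effect was tested with limma over all genes, with induction as a block, which treats both arrays of a line as repeats. Each SE given with a limma estimate is moderated, which means that it borrows from the variance of all genes compared. It is not the gene's own spread. Grb10 was higher in the Hey2 line by 3.73 ± 0.15 (SE, log2 scale, 2 arrays a line, adjusted p = 0.044 by limma). The limma estimate was -1.15 ± 0.09 for Ddc (adjusted p = 0.044) and -1.43 ± 0.13 for Plagl1 (adjusted p = 0.047), both lower in the Hey2 line. These 3 of 29 imprinted genes passed, against a background of 0.918% of all genes. An unadjusted limma p under 0.05 was found for 14 of 29 (13 of 27 without Peg10 and Dlk1), against 28.3% of all genes. The set was named after Grb10 with earlier results of these arrays known, so this test is not independent evidence. With 1 array a group, the p-values cover no more than the scatter among these 4 arrays, which may be technical.

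The calls rest on few arrays. A fit with a single array left out, made without the block, has 1 array in a line, so only its estimates are given here. With a single array out, the Grb10 estimate ranged from 3.34 to 4.11. That of Ddc ranged from -1.20 to -1.10 and that of Plagl1 from -1.67 to -1.19. Given as the mean of its probe sets, Grb10 had an estimate of 2.40 and Ddc of -0.58, both still called, and Plagl1 of -0.57, which was not (adjusted p = 0.067 by limma).

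Promoter stretches of Grb10, Plagl1 and Kcnq1ot1 are shown with their CpG sites. The sequences of Sgce and Peg10 were not available. Whether the stretches shown carry an imprinting mark was not tested. Of the 38 listed genes, 32 were matched by symbol among the promoters available for GRCm38.p6. The 250 bases before the annotated start are printed 5′ to 3′, with CpG sites in capitals. Grb10 has 2 annotated starts, at chr11:12037421-12037670 and chr11:12027972-12028221 (minus strand), which differ in CpG content, with 40 and 8 sites. The Plagl1 stretch is chr10:13090582-13090831 (plus strand) with 19 sites, and that of Kcnq1ot1, described further on, is chr7:143296548-143296797 (minus strand) with 5 sites. The median over all 32851 promoters was 6.
Grb10 start 1: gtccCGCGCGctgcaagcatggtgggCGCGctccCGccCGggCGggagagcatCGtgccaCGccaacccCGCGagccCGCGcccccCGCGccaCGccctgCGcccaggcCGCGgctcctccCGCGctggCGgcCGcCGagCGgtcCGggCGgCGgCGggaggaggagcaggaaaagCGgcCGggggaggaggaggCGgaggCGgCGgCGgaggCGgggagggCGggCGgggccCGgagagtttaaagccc
Grb10 start 2: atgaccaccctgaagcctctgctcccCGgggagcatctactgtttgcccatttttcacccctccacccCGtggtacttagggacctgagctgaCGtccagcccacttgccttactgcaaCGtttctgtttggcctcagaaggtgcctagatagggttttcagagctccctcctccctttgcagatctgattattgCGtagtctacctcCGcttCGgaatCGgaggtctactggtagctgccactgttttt
Plagl1: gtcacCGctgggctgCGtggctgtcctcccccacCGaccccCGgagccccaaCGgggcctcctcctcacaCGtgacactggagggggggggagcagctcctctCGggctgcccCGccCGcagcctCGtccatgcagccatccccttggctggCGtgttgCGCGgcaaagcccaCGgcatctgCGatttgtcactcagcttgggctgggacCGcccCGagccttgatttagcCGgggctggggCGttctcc
Kcnq1ot1: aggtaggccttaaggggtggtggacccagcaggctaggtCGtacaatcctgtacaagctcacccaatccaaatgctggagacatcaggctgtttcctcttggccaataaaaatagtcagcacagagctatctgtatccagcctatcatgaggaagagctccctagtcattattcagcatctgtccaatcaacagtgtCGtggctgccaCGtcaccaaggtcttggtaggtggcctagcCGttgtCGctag
Both strands were searched for CACGTG and CACGCG, the E-box forms bound by Hey factors. The Plagl1 stretch held a single CACGTG, a motif present in 6.02% of all promoters, and no stretch shown held CACGCG, present in 7.62%. The stretches before the 2 annotated starts of Ddc held 1 and 4 CpG sites and neither motif. A match is a description of letters and no evidence of binding.

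Genes next to Grb10 on chromosome 11 were set beside it. Cobl, the neighbour on the other side and itself imprinted in some tissues, read 10.17 and 10.11 in the Hey1 line and 10.32 and 10.84 in the Hey2 line. Fignl1, a DNA repair gene beyond Ddc, differed between the lines by -0.27 in the uninduced and -0.13 in the labelled induced arrays. Ikzf1, a lymphoid transcription factor gene, differed by 0.13 and -0.15. None of Cobl, Fignl1 and Ikzf1 passed limma for the line effect (adjusted p = 0.194, 0.239 and 0.964).

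Other imprinted genes differed between the lines by less. Meg3, a maternally read long noncoding RNA of the Dlk1-Dio3 cluster, read 11.74 and 11.70 in the Hey1 line and 12.36 and 12.31 in the Hey2 line. The pairs lay apart, by 1.53-fold in the uninduced arrays. Of its 11 probe sets, 8 reached the filter in both lines, and their line differences ran from 0.09 to 0.81 in the uninduced and from 0.03 to 0.64 in the labelled induced arrays. Its estimate was 0.61 ± 0.08 (2 arrays a line, adjusted p = 0.055 by limma), past the threshold with the stricter filter, the linear offset and the level-dependent prior. Over all genes these settings called 1066 higher and 798 lower, 679 and 448, and 1543 and 1390, against 65 and 46 in the main fit. Of the same cluster, the snoRNA host Rian differed by 0.20 and 0.27 at its chosen probe set and by -0.41 and -0.18 at another, the microRNA host Mirg by 0.12 and -0.12, and Dlk1, a transmembrane relative of the Notch ligands, by 0.25 and 0.49.

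Phlda2, which restrains placental growth, read 10.24 and 10.10 in the Hey1 line and 10.90 and 10.61 in the Hey2 line (0.58 ± 0.09, 2 arrays a line, adjusted p = 0.061 by limma). Gnas, the stimulatory G protein subunit, read 11.53 and 11.46 against 11.98 and 11.99. Cd81, a tetraspanin imprinted in placenta, read 11.99 and 11.88 against 12.42 and 12.32. Ndn, a growth suppressor of the Snrpn cluster, read 9.72 and 9.81 against 9.29 and 9.36. The line pairs of these 4 genes did not overlap, as for 54% of all genes, and none passed limma (adjusted p = 0.061 to 0.076). Slc38a4, an amino acid transporter of the placenta, had line differences of 0.55 and 0.23 at its chosen probe set and of 1.33 and 0.97 at the other.

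Over the 29 genes the median line difference was 0.09 in the uninduced and -0.09 in the labelled induced arrays, against 0.03 and -0.02 over all genes. At least 1.5-fold apart were 6 of 29 in the uninduced (Grb10, Meg3, Phlda2, Ddc, Nnat and Plagl1), where 8.92% of all genes were, and 6 of 29 in the labelled induced arrays, where 6.71% were. The latter were Grb10, Kcnq1ot1, Meg3, Zdbf2, Ddc and Plagl1. At 2-fold the labelled induced arrays held the same 3 genes, against a background of 1.61%. The sign was the same in both pairs of arrays, which share no array, for 22 of 29 imprinted genes and for 71.4% of all genes. Without Peg10 and Dlk1 it was the same for 20 of 27.

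Within the lines, the imprinted genes that read higher in the arrays labelled induced included a neighbouring pair on chromosome 6. Sgce, the epsilon-sarcoglycan gene, was 2.24-fold higher in the Hey1 and 1.75-fold higher in the Hey2 line. Peg10, a retrotransposon-derived gene needed for the placenta, was 1.59-fold and 1.60-fold higher. Both are read from the paternal copy, and their starts lie head to head at the methylated control region of the cluster. The 2-fold mark was passed by 1 of 29 imprinted genes in the Hey1 line (0.471% of all genes) and by 0 of 29 in the Hey2 line (0.926% of all genes).

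Sgce went from 6.77 uninduced to 7.94 labelled induced in the Hey1 line, and from 6.64 to 7.44 in the Hey2 line. Both labelled induced arrays lay above both uninduced arrays. These pairs were apart for 11 of 29 imprinted genes (10 of 27 without Peg10 and Dlk1) and for 30.8% of all genes. Its other probe set, under the filter, differed by 0.21 and 0.88. Peg10 read 5.88 and 6.56 in the Hey1 line and 5.69 and 6.37 in the Hey2 line, with the same order. Both of its uninduced values were under 6.05, which leaves its fold uncertain. The differences between the uninduced lines were smaller, at -0.14 for Sgce and -0.19 for Peg10.

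**Figure D3:**
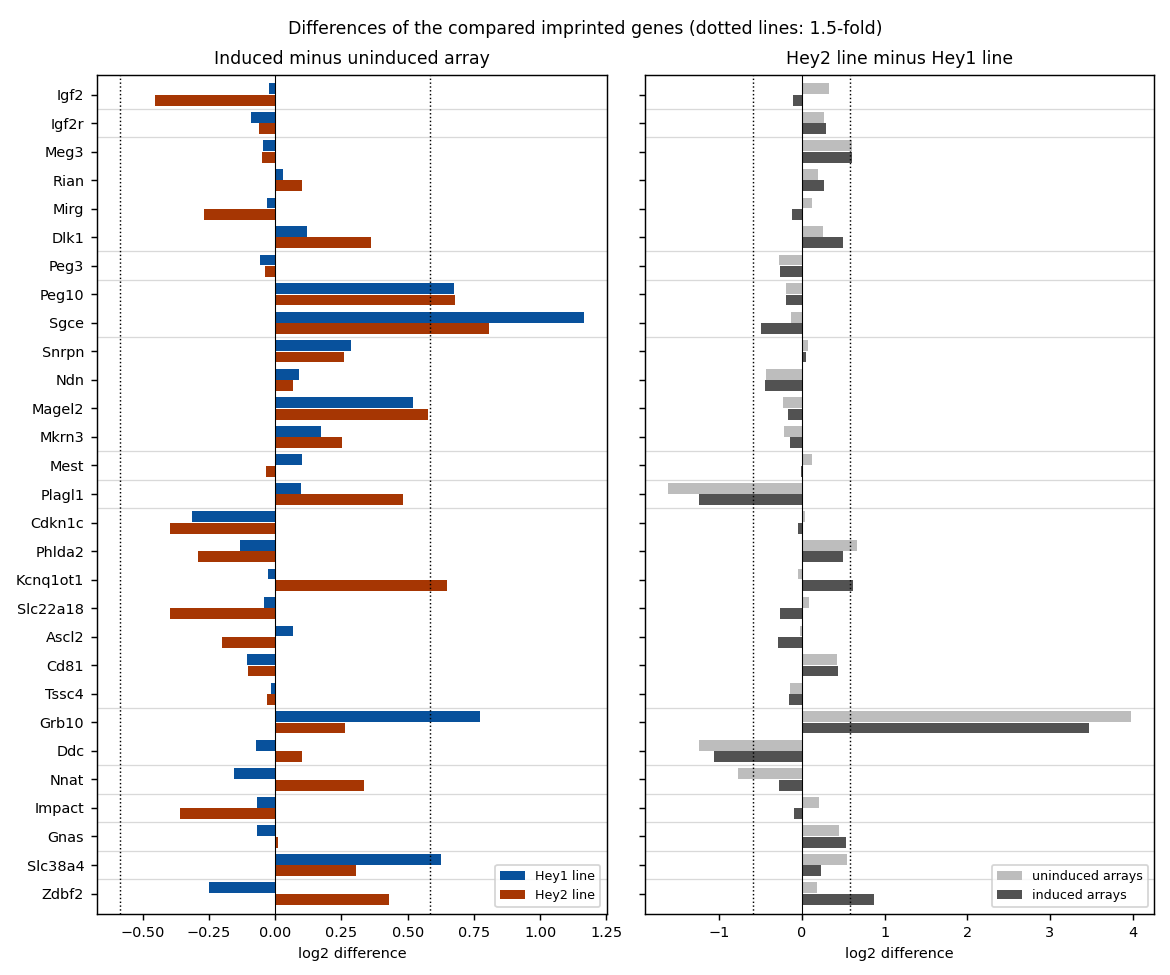
Log2 differences (x axes) of the 29 compared imprinted genes (y axis), within the lines on the left and between the lines on the right. Dotted lines mark 1.5-fold. Sgce and Peg10 pass 1.5-fold on the left in both lines, and Grb10, Plagl1 and Ddc stand out on the right in both pairs of arrays.

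A limma fit with the line as a block tested the response common to both. Of the 29 imprinted genes 0 passed an adjusted p of 0.05, as did 0% of all genes. At an unadjusted p of 0.05 the count was 7 of 29, namely Sgce, Peg10, Magel2, Slc38a4, Grb10 and Snrpn on the higher and Cdkn1c on the lower side, where 13.2% of all genes were past it. Without Peg10 and Dlk1 the count was 6 of 27. Sgce had a mean difference of 0.98 ± 0.12 (SE, 2 lines, higher in 2 of 2, adjusted p = 0.237 by limma). That of Peg10 was 0.68, with no test read from it. With a robust prior fitted to the level, limma called Sgce (adjusted p = 0.0051) and Slc38a4. Over all genes that setting called 241 higher and 192 lower.

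Other imprinted genes around Peg10 on chromosome 6, from a list of further imprinted genes, were examined in the same way. Pon2, a paraoxonase, read 6.79 and 7.64 in the Hey1 line and 6.57 and 7.60 in the Hey2 line, so that both labelled induced values lay above both uninduced values. Its mean difference was 0.94 ± 0.09 (2 lines, adjusted p = 0.237 by limma). Ppp1r9a, a neuronal actin-binding protein, differed by 0.41 and 0.50, and Casd1, a sialic acid acetyltransferase, by 0.16 and 0.18. Pon3 (0.34 and 0.72) and Asb4 (0.48 and -0.21) stayed under the level filter. So did Calcr (0.41 and -0.01), Tfpi2 (-0.07 and -0.17) and Dlx5 (-0.12 and -0.26) of the list of further imprinted genes. On the side of Casd1, the next genes differed by 0.09 and -0.38 (Col1a2), -0.11 and -0.07 (Bet1) and -0.05 and -0.28 (Gng11).

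The paternally read genes of the Snrpn cluster on chromosome 7 differed less, in the same direction. Magel2, a regulator of ubiquitin ligases, read 6.08 and 6.60 in the Hey1 line and 5.85 and 6.43 in the Hey2 line, with 1 of 4 values below the level filter. Its mean difference was 0.55 ± 0.08 (2 lines, adjusted p = 0.261 by limma). Snrpn, a component of the splicing machinery, differed by 0.29 and 0.26, and Mkrn3, a ring finger protein gene, by 0.17 and 0.25. Snrpn had 1 single-symbol probe set, and its 6 probe sets with several symbols were not examined. Ndn differed by 0.09 and 0.07 at its chosen probe set, while its 5 probe sets at the filter had a median of -0.0096 in the Hey2 line. At the chosen probe sets all 4 compared genes of the cluster were above 0 in both lines, where 46.8% (Hey1 line) and 45.6% (Hey2 line) of all genes were. In Magel2, Snrpn and Mkrn3 the labelled induced pair lay above the uninduced pair, and such pairs were apart for 30.8% of all genes.

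In the Kcnq1ot1 cluster, also on chromosome 7, the noncoding RNA differed in the Hey2 line alone at its chosen probe set. Kcnq1ot1 is a long antisense RNA, read from the paternal copy, that silences the genes beside it on that copy. It read 8.36 and 8.34 in the Hey1 line and 8.31 and 8.96 in the Hey2 line. The array labelled induced of the Hey2 line thus stood alone, 1.57-fold above its uninduced array. Of its other probe sets, those that reached the filter in both lines differed there by 0.48 and 1.06, and in the Hey1 line by -0.17 and -0.31. A further one read 5.33, 5.62, 4.66 and 6.62, over the filter on the Hey2 labelled induced array alone, and those under it throughout differed in the Hey2 line by -0.03 and 0.17. The gap between the responses of the lines was 0.67 on the log2 scale and leaves no array to test it with.

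The maternally read protein genes of this cluster differed by less. Cdkn1c, an inhibitor of the cell cycle, read 7.37 and 7.06 in the Hey1 line and 7.41 and 7.01 in the Hey2 line, and both labelled induced values lay below both uninduced ones. Its mean difference was -0.35 ± 0.08 (2 lines, adjusted p = 0.301 by limma). Slc22a18, a membrane transporter, differed by -0.04 and -0.40 at its chosen and by -0.03 and 0.17 at its other probe set, and Phlda2 by -0.13 and -0.29. Ascl2, a transcription factor of the trophoblast, differed by 0.07 and -0.20, Cd81 by -0.11 and -0.10, and Tssc4, a chaperone of the spliceosome, by -0.02 and -0.03. The log2 gap between 3′ and 5′ control probe sets, a measure of RNA quality, went from 0.67 to 0.96 for Tfrc and from 1.33 to 1.56 for Pcx in the Hey2 line, against 0.95 to 0.84 and 1.38 to 1.43 in the Hey1 line. Its part in the Hey2-line differences was not tested.

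Grb10 and Slc38a4 passed 1.5-fold in the Hey1 line only by these values. Grb10 was 1.71-fold higher in the array labelled induced of the Hey1 line and 1.20-fold higher in that of the Hey2 line, but its other probe sets differed by -0.46 and -0.01 in the Hey1 line, where they read 6.08 and 5.62, and 5.51 and 5.50, near or under the level filter. Slc38a4 read 10.08 and 10.71 in the Hey1 line and 10.63 and 10.94 in the Hey2 line, and its other probe set differed by 0.56 and 0.20. At 1.5-fold there were thus 4 of 29 imprinted genes in the Hey1 line (Sgce, Grb10, Peg10 and Slc38a4), where 2.42% of all genes passed, and 3 of 29 in the Hey2 line (Sgce, Peg10 and Kcnq1ot1), where 5.48% did. Without Peg10 the counts were 3 and 2. All of these differences were on the higher side, where 1.84% and 3.02% of all genes passed 1.5-fold. The sign was the same in both lines for 22 of 29 imprinted genes and for 63.6% of all genes. Without Peg10 and Dlk1 it was the same for 20 of 27.

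Set against the uninduced array of the other line, these differences shift by the uninduced line difference. The shift follows from the values already given, so it is no separate check. The Grb10 difference of the Hey1 line turned to -3.21 with the Hey2 line's uninduced array as reference, and that of Slc38a4 was 0.08. Sgce stayed above 0 under that reference in both lines. So did Peg10, which reached the filter on the labelled induced arrays alone. The lowest values over all alternatives tried were 0.69 and 0.65 for Sgce and 0.47 and 0.45 for Peg10.

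**Figure D4:**
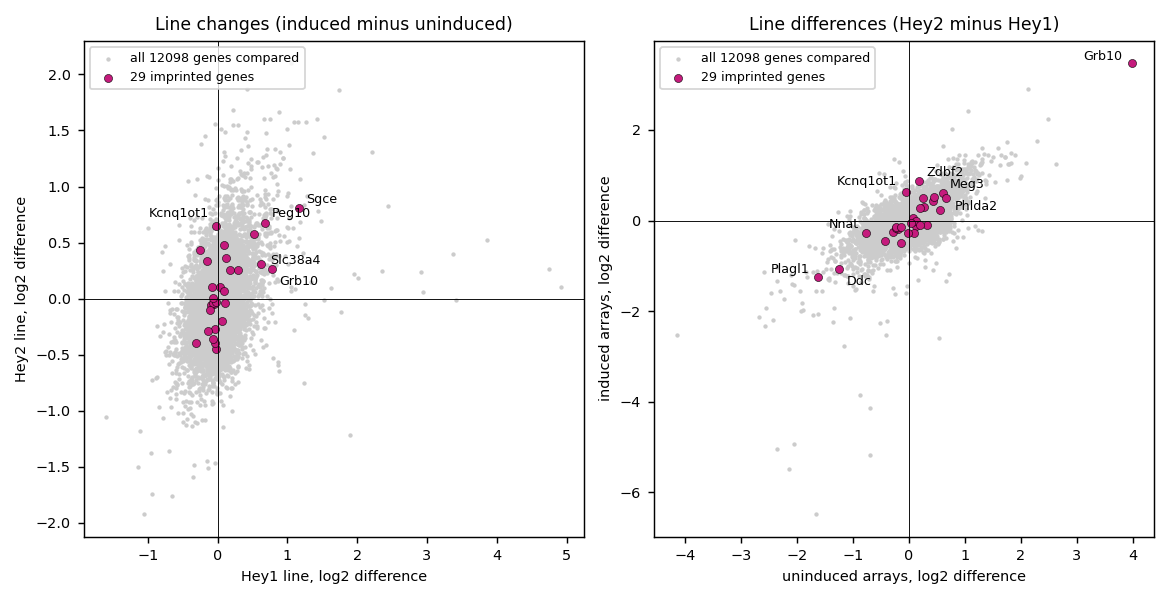
Log2 differences of all 12098 genes compared (grey) and of the 29 imprinted genes (coloured). On the left the Hey1-line change (x axis) is set against the Hey2-line change (y axis), and on the right the difference between the uninduced arrays (x axis) against that between the arrays labelled induced (y axis). The axes of a panel share no array. Most imprinted genes lie within the grey cloud, with Grb10 far outside it on the right.

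The differences within the lines were compared in size with the difference between the uninduced arrays, by cluster. Each change shares an uninduced array with that difference, so the sizes compared are not independent. The change was larger than the uninduced line difference for 8 of 29 imprinted genes in the Hey1 line (32% of all genes) and for 14 of 29 in the Hey2 line (42.6% of all genes). It was larger in both lines for 7 of 29, namely Peg10, Sgce, Magel2, Snrpn, Cdkn1c, Ascl2 and Zdbf2, against 22.7% of all genes. Without Peg10 and Dlk1, the counts were 7 of 27 in the Hey1 line, 12 of 27 in the Hey2 line and 6 of 27 in both. In the Peg10 cluster, with Peg10 set aside, Sgce changed by 1.16 and 0.81 against a line difference of -0.14. The median changes were 0.23 and 0.26 against -0.22 for the 4 genes of the Snrpn cluster. The 4 genes of the Dlk1-Dio3 cluster, with Dlk1 included, had medians of -0.00096 in the Hey1 and 0.02 in the Hey2 line, against 0.22.

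The parental copy from which a gene is mainly read was also used to group the genes. Of the 17 compared genes read from the paternal copy, Peg10 and Dlk1 included, 10 were above 0 in the Hey1 and 13 in the Hey2 line, with medians of 0.10 and 0.30. Of the 10 read from the maternal copy, 2 and 1 were above 0, with medians of -0.05 and -0.15. Over all genes 46.8% and 45.6% were above 0, with medians of -0.01 and -0.02. Between the uninduced lines the order of these groups was the reverse, with medians of -0.14 for paternally and 0.16 for maternally read genes. The uninduced Hey2 array enters this difference and the Hey2-line change with opposite signs, which favours a reversed order. The uninduced Hey1 array enters this difference and the Hey1-line change with the same sign. Peg10 and Dlk1 were above 0 in both lines, but they reached the filter only through labelled induced arrays, which favours that sign. The copy was assigned from knowledge of imprinting and was not measured in these cells. These are counts over genes that share clusters, and no test was made of them.

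The remaining members differed by less than 1.5-fold in both lines. Igf2, the fetal growth factor, read 6.90 and 6.87 in the Hey1 line and 7.22 and 6.77 in the Hey2 line. Igf2r, the receptor that clears it, differed by -0.09 and -0.06. Peg3, a zinc finger protein gene, differed by -0.06 and -0.04 and by -0.28 and -0.26 between the lines. Mest, a hydrolase-like gene, differed by 0.10 and -0.04, and Impact, an inhibitor of the Gcn2 stress kinase, by -0.07 and -0.36. Zdbf2 read 10.13 and 9.88 in the Hey1 line and 10.32 and 10.75 in the Hey2 line, so that its direction differed between the lines. Nnat, a small membrane protein of developing brain, read 6.84 and 6.69 in the Hey1 line and 6.08 and 6.41 in the Hey2 line, close to the level filter.

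Further imprinted genes, the factors that maintain imprints and the signalling genes on which Grb10 acts were taken from separate lists. Of 23 further imprinted genes compared, 0 passed limma for the line effect or the common response, which 0.918% and 0% of all genes did. At such shares a count of 0 says nothing about this list or the next ones. Past 1.5-fold in both lines were Pon2 and the AMP deaminase Ampd3 (0.78 and 0.75), a rule not counted over all genes. On the uninduced Hey2 array Ampd3 read 5.84, under the level filter. Mcts2, a translation factor gene copied by retroposition, read 12.04 and 11.89 in the Hey1 line and 11.30 and 11.04 in the Hey2 line (-0.79 ± 0.08, 2 arrays a line, adjusted p = 0.053 by limma). Sfmbt2, a Polycomb protein gene, differed between the lines by 0.71 in the uninduced and 0.30 in the labelled induced arrays. Qpct, which modifies peptide ends, differed by -1.21 and -0.52, with both Hey2-line values under the level filter. Within the Hey1 and Hey2 lines, Sfmbt2 differed by 0.66 and 0.26 and Qpct by -0.63 and 0.07.

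All 11 imprint maintenance factors were compared and 0 passed either test. The maintenance methyltransferase Dnmt1 read 11.12 and 11.20 in the Hey1 line and 11.79 and 11.66 in the Hey2 line (0.57 ± 0.10, 2 arrays a line, adjusted p = 0.067 by limma). Zfp57 differed between the lines by 0.00044 in the uninduced and 0.32 in the labelled induced arrays, and its partner Trim28 by 0.15 and 0.25. Of 24 insulin and IGF signalling genes compared, 0 passed either test. The docking protein Gab1 was higher in the Hey2 line by 0.78 and 0.65 (adjusted p = 0.055 by limma) and the IGF binding protein Igfbp2 differed by -0.94 and -0.50. The receptors Igf1r and Insr differed by -0.08 and 0.09 and by -0.49 and -0.37. Within the lines, Igfbp3 differed by 0.63 in the Hey1 and 0.03 in the Hey2 line. The fibroblast marker Thy1, which stem cells can also express, read 7.13 and 7.80 in the Hey1 line and 5.51 and 5.73 in the Hey2 line. It passed the line test (adjusted p = 0.044 by limma), but both Hey2-line values were under the level filter, which it reached through the Hey1 line alone. No other compared marker of the stem cell, fibroblast, trophoblast and primitive endoderm lists passed the line test. Some of these markers passed 1.5-fold within a line. In the Hey2 line Sox7 differed by 1.18, Hand1 by -0.74 and Klf4 by 0.61, and in the Hey1 line Tfap2c differed by 0.60. Sox7 reached the level filter on the labelled induced arrays alone. The part of Thy1-expressing cells in the line differences was not tested. Genes of these lists named here without passing 1.5-fold were chosen after their values were seen.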

How the data were processed

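The 4 groups of CM7/1 embryonic stem cells were measured on 1 Affymetrix array each. The authors deposited log2 values made with RMA, per the submitters' processing notes, and its version was not given in the sources used here. RMA puts all arrays on a common distribution, which hides a shift shared by most genes. Of 45101 probe sets, 34958 had 1 gene symbol in the platform annotation, 932 several and 9211 none. Each gene was taken as its single-symbol probe set with the highest mean, and was compared if any array reached 6.05, the median of all values. Differences between 2 arrays have no test. A limma 3.58.1 fit (R 4.3.3) over 12098 genes with line and induction as terms, 1 residual degree of freedom and Benjamini-Hochberg adjustment gave the response common to both lines and the line effect. On simulated data it recovered 65.1% of 2-fold line differences (1 on the log2 scale) and 0.821% of those of 0.5. With planted sizes of 0.5, 1 and 2 together, 7.25% of calls were false. The simulated arrays varied independently, so variation shared by the arrays of a line was not part of it. Python 3.11.15 was used for counts and figures. The number of arrays limits the precision. Named genes were all 38 listed genes and, from the companion lists, those past 1.5-fold or called and up to 3 of the highest level, with exceptions stated. Members and lists were chosen with earlier results of these data known. Alternatives were the level filter, the mean of probe sets, cyclic loess, a linear offset, a robust prior variance, the other line's uninduced array as reference and leaving out arrays.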

Additional observations from a re-analysis of the deposited data

Results flagged for a closer look

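The change of Nnat had opposite signs in the lines, at -0.16 in the Hey1 and 0.34 in the Hey2 line, a gap of 0.49 on the log2 scale. Zdbf2 also had opposite signs, at -0.25 and 0.43, a gap of 0.68. Each rests on 1 array a group, and the difference between the lines was not tested.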

How the results depend on the processing

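With 1 array a group, a low level and a single chosen probe set limit most values. No paired analysis was possible because each group has 1 array and the labels give no replicate numbers, other than the line as a block in the common response. In the Hey1 line, the 2-fold count of imprinted genes was 0 under 3 settings (the filter at the 75th percentile, the mean of probe sets, an offset of 32), and 4 with the Hey2 line's uninduced array as reference. Its 1.5-fold count was 2 with the 75th percentile and 9 against the other line's uninduced array, under which the Grb10 change turned to -3.21. In the Hey2 line, the counts against the other uninduced array were 3 at 2-fold and 8 at 1.5-fold, and the 75th percentile left 1 at 1.5-fold. The mean of probe sets left 1 gene at 2-fold between the uninduced and 1 between the labelled induced arrays. For the line effect, limma called 11 of 18 imprinted genes with the 75th percentile, where 7355 genes were compared. It called 8 of 29 with the offset and 12 of 29 with the robust prior that follows the level, each over 12098 genes. Calls over all genes also rose under these settings, so the counts are not read as a result about imprinted genes. The robust prior called 2 in the common response. Over all genes, 111 line differences were called (65 higher, 46 lower), against 1066 higher and 798 lower with the 75th percentile, 311 and 243 with the mean of probe sets, 214 and 119 with cyclic loess, 679 and 448 with the offset, and 1543 and 1390 with the robust prior. Without an array they ranged from 0 higher and 0 lower (without Hey1 induced or Hey2 uninduced) to 32 and 39 (without Hey2 induced), with 0 and 5 without Hey1 uninduced. Common response calls were 0 in all, 241 and 192 with the robust prior, 3 and 1 with the 75th percentile, and 5 and 0 without Hey2 induced. Fits without an array left out the block, and the lone array was assumed to vary like the others. The causes of these shifts were not tested. Over all alternatives, 46 counts of imprinted genes stayed within 1.5 times and 18 moved further. Not all that moved are given here: some came from fits with an array left out, which leave 1 array in a line.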
